A study of Mus musculus with 4 samples.

Results

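Chromatin accessibility at the genes of the cytosolic ribosomal proteins was examined in RAW264.7 cells, an immortalised mouse macrophage line, by ATAC-seq, in which the Tn5 transposase cuts open DNA. The members were the protein-coding genes named Rpl or Rps with a number, together with Rplp0, Rplp1, Rplp2 and Rpsa, without pseudogenes and without the kinases that phosphorylate Rps6. This rule gave 89 of the 21442 protein-coding genes of the reference that had a strand. They comprised 31 core genes of the small subunit, 46 core genes of the large subunit and 12 further genes of similar name, which are paralogs, retrogenes (intronless copies made from mRNA) and Rps19bp1, which encodes an Rps19-binding protein. All 4 libraries came from wild-type cells given 25 ug/mL DIL-oxLDL, a dye-labelled oxidized lipoprotein, for 24 h. The control group (n = 2) had DMSO, the solvent, and the esculetin group (n = 2) had 40 ug/mL esculetin, a coumarin, for the same time. The labels do not say whether replicates were separate cultures, so p-values measure the spread between these libraries, which may be technical.

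Ribosomal proteins clothe the ribosomal RNA in the subunits that translate mRNA, and their genes are among the most actively transcribed housekeeping genes of almost every cell. Their promoters commonly lack a TATA box and start within a run of pyrimidines, the terminal oligopyrimidine tract, through which growth signals control translation of the mRNA. Most of these genes also have processed pseudogenes elsewhere in the genome, which are copies of its mRNA without introns. In macrophages, as in other cells, output of ribosomes follows growth and nutrient state.

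Promoter sequence was read first, for 4 members whose peaks differed between the groups and for 1 reference case. Of the 77 core genes, 57 had a window in the RefSeq promoter table (GRCm38.p6), which runs from 250 bases before to 50 bases after a listed start. Rps29 and Rpl8, whose peaks also differed between the groups, had no window there. The lines below give 150 bases before the start and the first 10 bases from it, on the coding strand. Capitals mark the stretch between the outermost peak summits of the libraries that had a peak there. Rpl19 and Rpl38 had a promoter peak in the esculetin libraries only, Rps16 and Rps19 had higher coverage in the esculetin group, and Rps6 had its 4 summits closest together. The windows lie at chr11:98026560-98026719 (Rpl19, plus strand), chr11:114668430-114668589 (Rpl38, plus), chr7:28350539-28350698 (Rps16, plus), chr7:24884442-24884601 (Rps19, plus) and chr4:86857358-86857517 (Rps6, minus).
Rpl19: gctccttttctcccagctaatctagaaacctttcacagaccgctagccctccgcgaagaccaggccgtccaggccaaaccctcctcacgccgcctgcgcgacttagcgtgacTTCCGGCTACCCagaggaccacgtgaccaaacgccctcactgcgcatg
Rpl38: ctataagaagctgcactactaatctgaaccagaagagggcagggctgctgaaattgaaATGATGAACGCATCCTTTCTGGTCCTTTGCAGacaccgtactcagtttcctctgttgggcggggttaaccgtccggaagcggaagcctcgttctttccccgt
Rps16: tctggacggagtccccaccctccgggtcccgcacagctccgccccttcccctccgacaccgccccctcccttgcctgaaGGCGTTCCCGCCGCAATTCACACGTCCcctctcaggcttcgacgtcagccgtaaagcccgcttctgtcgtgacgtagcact
Rps19: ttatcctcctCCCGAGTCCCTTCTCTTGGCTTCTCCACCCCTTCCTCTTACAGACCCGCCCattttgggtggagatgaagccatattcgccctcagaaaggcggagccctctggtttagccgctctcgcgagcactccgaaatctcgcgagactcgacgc
Rps6: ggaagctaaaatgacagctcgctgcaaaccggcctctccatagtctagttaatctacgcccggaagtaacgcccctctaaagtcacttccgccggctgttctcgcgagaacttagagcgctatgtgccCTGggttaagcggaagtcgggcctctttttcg
The capitals of Rps6 ran from -22 to -20 bp from the start, whereas those of Rps19 ran from -140 to -90 bp. A run of C or T of at least 8 bases lay at the start (within 5 bases of it) in 19 of 57 core windows (33.3%), against 9.6% of the 17469 protein-coding genes with a window. That run was 10 bases long in Rps6 and Rpl38, 5 in Rpl19, 4 in Rps19 and 2 in Rps16. The letters CCGGAA, the core bound by ETS factors, stood on either strand in 29 core windows (50.9%), against 19.1% of all. They were in the windows of Rpl19, Rpl38 and Rps6, and in neither Rps16 nor Rps19. ATGGCG, a YY1-like core, was in 16 (28.1% against 11.2%), and GGGCGG, the GC box, was in 34 (59.6% against 46.4%). CCAAT was in 18 (31.6% against 39.2%) and TATAAA in 6 (10.5% against 13.3%). These shares describe letters and not bound sites.

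The libraries are set out next, since list length bears on every count. The peak lists held 19595 and 27833 entries in control replicates 1 and 2, and 8677 and 12792 in the esculetin replicates. Depth, as genome background coverage, was 6.51 and 4.08 in the controls and 4.97 and 4.10 with esculetin, so it overlapped between the groups. Of 10 macrophage marker genes, 5, 7, 1 and 4 had a promoter peak in control 1, control 2, esculetin 1 and esculetin 2 (this order is kept below). Spi1, which encodes the macrophage factor PU.1, had one in every library, whereas Csf1r, Itgam and Adgre1 had none in any. Of 8 kidney epithelium, 4 T cell and 4 fibroblast markers, only Pou3f3 of the kidney list had a promoter peak, in control 2. Peaks inside the gene, which are counted below for the members, were present in 3, 1, 0 and 0 of the kidney, 2, 1, 1 and 1 of the T cell, 0, 3, 0 and 0 of the fibroblast and 3, 7, 0 and 0 of the macrophage markers, and their relation to the members' was not tested. In bulk ATAC-seq, a smaller share of cells with an open site and a less open site in each cell cannot be told apart.

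Whether ribosomal protein promoters were open, and whether esculetin altered this, was asked by counting members with a peak summit within 1 kb of a listed start. The members kept a promoter peak in most cases in every library, with 69, 74, 68 and 77 of 89 (77.5%, 83.1%, 76.4% and 86.5%). Over all protein-coding genes the shares were 40.0%, 41.3%, 29.5% and 37.3%. The control mean was 71.5 ± 3.54 members and the esculetin mean 72.5 ± 6.36 (SD, n = 2 each), a difference of 1 with an exact two-sided permutation p of 1. The smallest p this design allows is 0.333. The difference was smaller than either SD, and its sign changed without control replicate 1 (-1.5) and without esculetin replicate 2 (-3.5). Among core genes the counts were 63, 68, 62 and 72 of 77. Those of the small subunit had 27, 28, 27 and 29 of 31, and those of the large subunit 36, 40, 35 and 43 of 46. The 12 further genes had 6, 6, 6 and 5.

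Other housekeeping complexes were counted in the same way. The 78 genes of the mitochondrial ribosomal proteins had a promoter peak in 60, 67, 37 and 51 cases (76.9%, 85.9%, 47.4% and 65.4%). The 40 proteasome subunit genes had 32, 32, 24 and 32. The share of cytosolic minus that of mitochondrial ribosomal protein genes was 0.605 and -2.75 percentage points in the controls, and 29.0 and 21.1 in the esculetin libraries. The mean difference between groups was 26.1 points, beyond the SDs of 2.37 and 5.54 (n = 2 each, exact permutation p = 0.333, the smallest possible). This contrast was added after the data were seen.

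**Figure D1:**
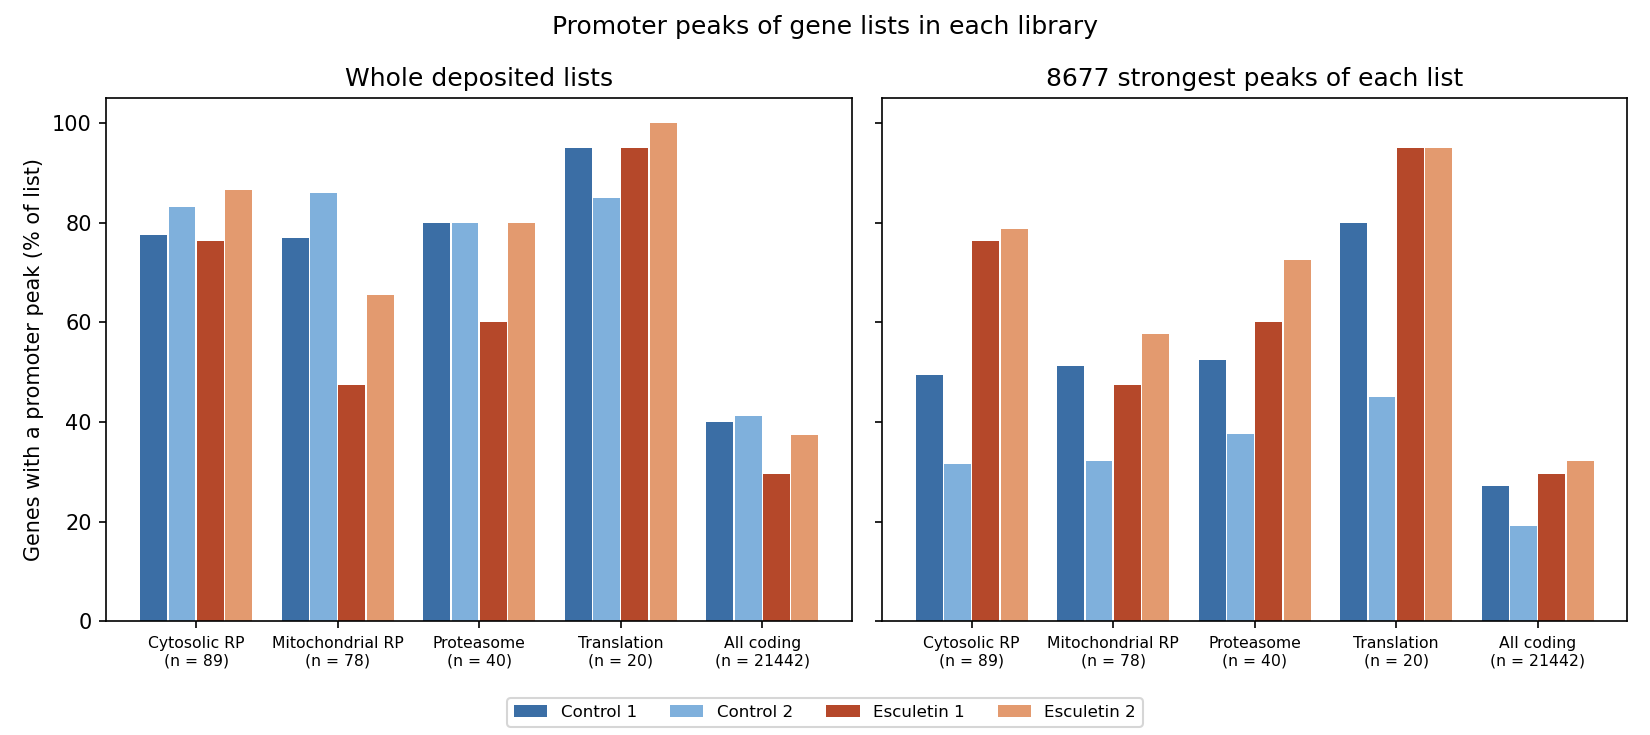
Share of each gene list with a promoter peak (y axis, percent) by library (bar colour), from the whole deposited lists on the left and from the 8677 strongest peaks of each library on the right. Bars are single libraries and have no error bar. On the left the cytosolic ribosomal protein genes lie between 76.4% and 86.5%, while the mitochondrial ones are at 47.4% and 65.4% with esculetin, and on the right the cytosolic genes lie at 49.4% and 31.5% in the controls and at 76.4% and 78.7% with esculetin.

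List length was then made equal by keeping the 8677 strongest peaks of each library. The members with a promoter peak became 44, 28, 68 and 70, a difference of 33.0 between group means (exact permutation p = 0.333). Both esculetin libraries lay above both controls. The shares were 49.4%, 31.5%, 76.4% and 78.7%, beside 27.2%, 19.2%, 29.5% and 32.1% of all protein-coding genes in the same cut lists. Over all protein-coding genes, too, both esculetin libraries lay above both controls. The cut equals the length of the esculetin 1 list, so that library lost no peaks and the controls lost the most. The difference between groups cannot be told apart from that of list length. Control 2, with the longest list, went from 74 members to 28. The mitochondrial ribosomal protein genes stood at 51.3%, 32.1%, 47.4% and 57.7%, and the groups overlapped. The proteasome subunit genes stood at 52.5%, 37.5%, 60.0% and 72.5%, with both esculetin libraries above both controls, as for the members.

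Of the 89 members, 82 had a promoter peak in at least 1 library, and 55 (67.1% of the 82) had one in all 4. The share over all protein-coding genes was 56.6% of 9966, and it was 45.8% for the mitochondrial ribosomal protein genes and 63.9% for the proteasome subunit genes. Rpl19, Rpl38 and Rpl8, all of the large subunit, had a promoter peak in both esculetin libraries and in neither control. They made 3 of 82 members, against 0.913% of the 9966 genes. No member had the opposite pattern, a peak in both controls and in neither esculetin library, which 7.93% of the 9966 genes and 6 mitochondrial ribosomal protein genes had. These counts were not tested, because each pattern rests on 2 libraries a group.

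The peaks of these 3 genes were of middle or low rank. Their height is given as summit coverage, the number of reads over the summit base. Rpl38, a protein known for its part in translating Hox mRNAs, had a summit coverage of 26 reads in both esculetin libraries (exact Poisson 95% interval 17 to 38.1, counting error only), at percentiles 23.9 and 34.9 of its lists. Percentiles run from 0 for the weakest peak of a library to 100 for the strongest, by the p-value of the peak. Rpl19 had 29 and 31 reads (percentiles 33.7 and 53.0), and Rpl8 had 24 and 27 (14.1 and 39.6). The lowest coverage of any called peak was 17 in control 1 and 13 in control 2, but a call also depends on the local background, and whether peaks of this height could have been called at these loci was not tested. In control 2, Rpl8 had a peak of 46 reads elsewhere, 2135 bp from its start near the 3′ end.

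Most of the other gaps were single libraries. Rpl26, Rpl29, Rpl35a, Rpl36, Rpl36a, Rpl4 and Rps27a (a ubiquitin fusion) lacked a promoter peak in esculetin 1 only, the library with the shortest list, as did 1310 coding genes. Rpl3, Rps3, Rps9 and the paralog Rpl7l1 lacked it in control 2 only. Rps3 and Rps9 had a peak inside the gene in that library, as did Rpl3. Rpl18, Rpl28 and Rps2 lacked it in control 1 only, and Rpl24 and the retrogene Rps27rt in esculetin 2 only. Rpl23a, Rpl32 and Rps15 had it in the second replicate of each group. Rpl12 had it in esculetin 2, and Rpl6 and Rpl32l in control 2. The 7 members with none in any library were Rpl17, Rps4x, Rpl10l, Rpl39l, Rpl3l, Rpl37rt and Rps23rg1. Of these, Rpl17 and Rps4x are core genes, whereas Rpl10l and Rpl3l are known as paralogs of restricted expression in testis and in muscle.

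**Figure D2:**
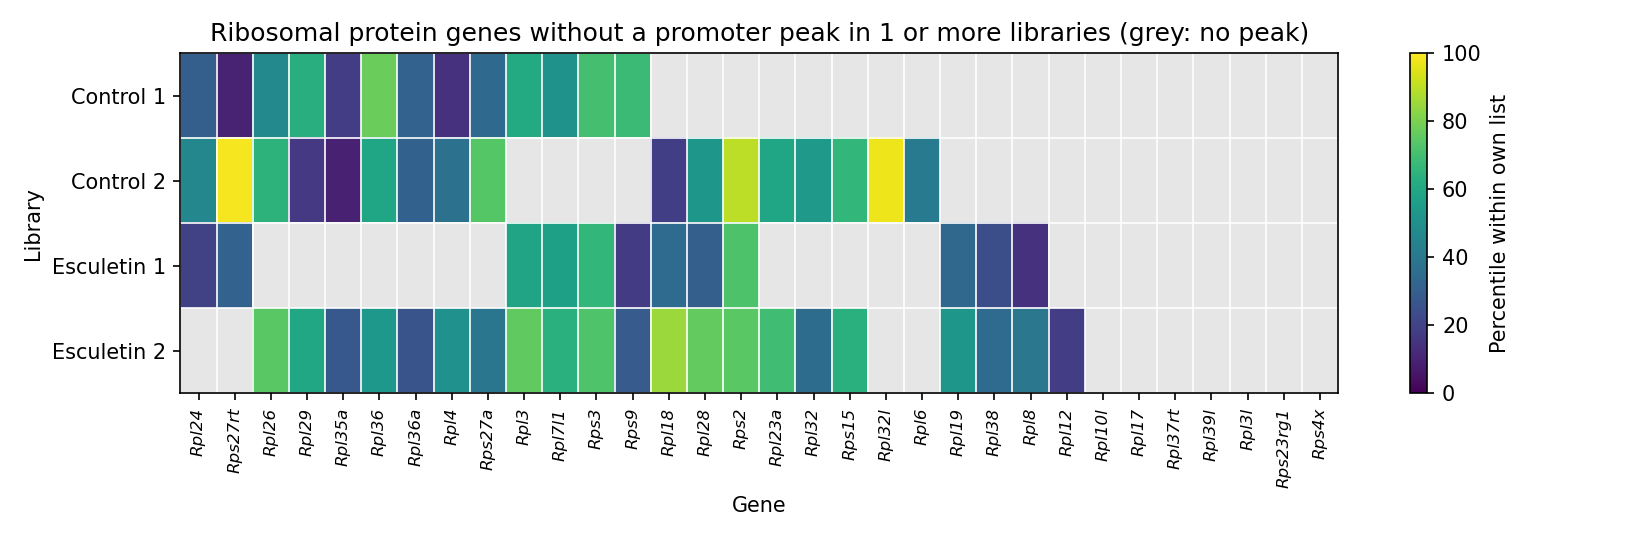
Named members without a promoter peak in 1 or more libraries (columns) by library (rows), coloured by the percentile of the peak in its own list and grey where no peak was called. Rpl19, Rpl38 and Rpl8 are filled in the esculetin rows only, and no gene is filled in both control rows and grey in both esculetin rows.

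How strong these promoters were was described by percentile. The median over members with a promoter peak was 66.7, 60.9, 48.0 and 71.5, against 71.6, 66.3, 59.9 and 67.0 over all protein-coding genes with one. The members thus stood below all promoters in 3 libraries and above them in esculetin 2. The esculetin mean (59.8 ± 16.6, SD, n = 2) differed from the control mean (63.8 ± 4.12, SD, n = 2) by -4.06, and the exact permutation p was 1. Summit coverage ran from 23 to 181, 18 to 127, 22 to 66 and 20 to 81 in the members' promoter peaks. Its median was 40, 35.5, 31.5 and 38 reads, against 41, 35, 34 and 35 over all. The sign of the percentile difference turned without esculetin replicate 1 (7.68), in lists cut to equal length (12.1) and by rank among promoter peaks alone (3.17).

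The members differed widely among themselves. They were ranked among the core genes with a promoter peak in all 4 libraries. Rps29, a small zinc-binding protein of the small subunit, had the highest mean percentile, 98.5, followed by Rpl37 (89.1), Rpl15 (87.0), Rpl27a (86.8) and Rps19 (86.1). Rpl37 had a coverage of 56, 55, 47 and 57, and Rpl27a had 52, 61, 46 and 45. At the other end were Rpl39 (30.9), Rps15a (34.5), Rpl7 (37.2), Rpl37a (38.0) and Rps28 (38.5). Rpl39 had 27, 18, 26 and 23 reads at its summit. Every value of Rpl37 was above every value of Rpl39. The start of Card6 lay 51 bp from that of Rpl37, and 15 members had the start of another protein-coding gene within 1 kb, whose part in the values was not tested.

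The landmark genes lay between these ends. Rplp0, the stalk protein often used as a reference transcript, had 48, 38, 46 and 42 reads. Rpsa, which is also known as the laminin receptor, had 55, 43, 48 and 49. Its control 2 value came from a summit 777 bp past the start, whereas the others lay at -18, -118 and -109 bp. Rps6, the target of the S6 kinases, had 38, 44, 33 and 37. In raw coverage the groups overlapped in Rplp0 and not in Rps6, and on the centred scale they overlapped in Rps6 and not in Rplp0. Rpl11 had 36, 30, 34 and 39 reads and Rpl5 had 28, 27, 30 and 35. Both proteins bind Mdm2 when ribosome assembly is disturbed. Rps18 had 31, 34, 28 and 40, and Rpl22 had 61, 45, 37 and 55.

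Summits lay close to the start. The median summit of core genes lay at -65, -45.5, -38.5 and -45 bp (negative is upstream), and 81.0%, 73.5%, 90.3% and 87.5% lay within 150 bp. Over all protein-coding genes 73.1%, 72.4%, 74.0% and 75.9% did. Core peaks had a median width of 398, 354, 376 and 440 bp, against 450, 460, 441 and 454 bp over all. In the members with a peak in all 4 libraries, the 4 summits spanned a median of 56 bp, and in 27 of 55 (49.1%) they lay within 50 bp. Over all 5641 such genes the median span was 86 bp and 27.4% lay within 50 bp. Rps6 spanned 2 bp, Rps10 9 bp and Rps13 10 bp. Rpl41, Rpsa and Rpl7 had the widest spans, with 958, 895 and 610 bp.

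In control 2 some of the strongest summits lay inside the gene. More than 200 bp past the start lay 3, 10, 0 and 1 of the members' summits, or 4.35%, 13.5%, 0% and 1.30% of their promoter peaks, against 9.08%, 11.3%, 7.51% and 7.61% over all protein-coding genes. The genes of control 2 included Rpl23a, Rpl26, Rpl29, Rpl32l, Rpl35a, Rpl41, Rps2, Rps27rt and Rpsa. Rps2 had its summit 565 bp past the start with 69 reads there, whereas in the esculetin libraries it stood at -102 and -82 bp with 45 and 47 reads. The retrogene Rps27rt had 123 reads in control 2 (percentile 98.8), 23 in control 1, 24 in esculetin 1 and no peak in esculetin 2. Rpl29 stood apart, with summits 598, 537 and 581 bp past the 5′ end of the gene in control 1, control 2 and esculetin 2. Retrogenes such as Rps27rt and Rpl32l are near-identical to their parent mRNA, so the place of their reads is uncertain.

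Esculetin and control were then compared at the summit itself. Summit coverage was solved from the fold and p-value of each peak, put on the log2 scale and centred on the median of all genes tested in each library. Of 5641 genes with a promoter peak in all 4 libraries, limma called 334 (5.92%) at an adjusted p under 0.05, with 3.63% higher and 2.29% lower with esculetin. The members outside the 55 tested lacked a peak in at least 1 library and had no value there. Among the 55 it called 3 (5.45%), with Rps16 and Rps19 higher and Rps29 lower. The median log2 difference was 0.07 over the members and 0.03 over all genes. The groups did not overlap in 24 of 55 members (43.6%), against 52.9% of all genes. The members therefore held calls and non-overlapping groups at about the rate of other promoters.

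Rps16 had 29, 22, 41 and 51 reads at its summit. Both esculetin libraries were above both controls, by 1.03 on the centred log2 scale (SE 0.24, adjusted p = 0.0108 by limma). Its gene lies at chr7:28350689-28352698, and its summits stood at -71, -45, -69 and -54 bp from the start, within the capitals printed above. It encodes a protein of the small subunit whose tail reaches the decoding site.

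Rps19, which is mutated in Diamond-Blackfan anaemia, had 52, 38, 63 and 71 reads, again with both esculetin libraries highest. The log2 difference was 0.77 (SE 0.20, adjusted p = 0.0209 by limma). It lies on the same chromosome, at chr7:24884592-24889811. The summits were at -140, -133, -90 and -125 bp from its start. The call was lost without control replicate 1 (log2 difference 0.89, adjusted p = 0.0509 by limma). Without control replicate 2 the calls of Rps19 (0.64, adjusted p = 0.29 by limma) and Rps16 (0.93, adjusted p = 0.155) were both lost. In fits with 1 library left in a group, that library is assumed to vary like those of the other group.

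Rps29 had 181, 127, 66 and 81 reads, in each library the highest promoter coverage of any member. Both controls were above both esculetin libraries, by a log2 difference of -0.88 (SE 0.16, adjusted p = 0.00165 by limma), and without control replicate 1 it was -0.72 and no longer called (adjusted p = 0.101 by limma, with the same assumption on the lone control). The gene lies at chr12:69157722-69159186 on the minus strand. Rn7s1, a gene of the 7SL RNA of the signal recognition particle, starts 109 bp away on the other strand and lies at chr12:69159295-69159593. In the controls the summit lay inside Rn7s1, 98 and 87 bp past its start. In the esculetin libraries it lay between the starts of both genes, at -9 and -5 bp from that of Rn7s1. The values of Rps29 and of Rn7s1 cannot be told apart in these peaks. Rn7s1 has near-identical copies in the genome, so its coverage is uncertain.

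**Figure D3:**
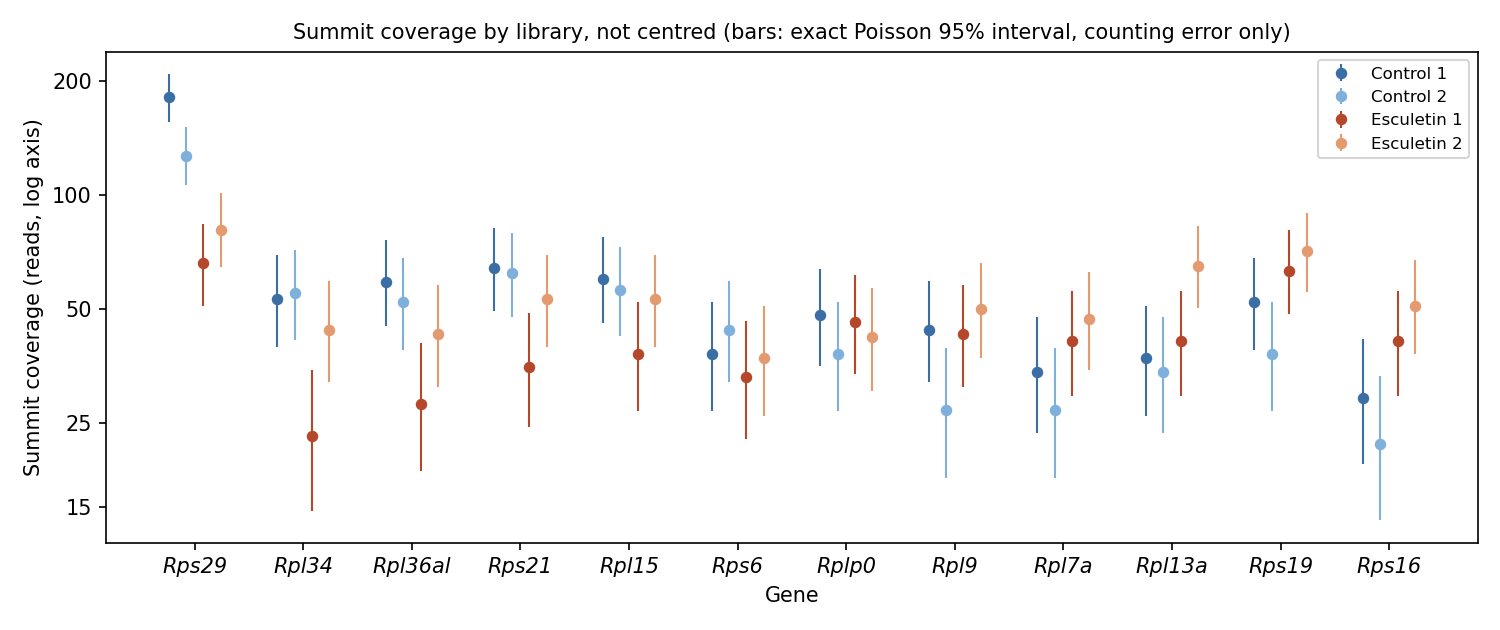
Summit coverage (reads, log axis) of 12 members in the 4 libraries, with exact Poisson 95% intervals as bars. Rps29 is at 181 and 127 in the controls and 66 and 81 with esculetin, whereas Rps16 goes from 29 and 22 to 41 and 51, and Rps6 ranges from 33 to 44.

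The counting intervals set the scale for these values. At the median member the SE from counting alone was 0.24 on the log2 scale, and the SE of the fit was 0.23. A difference near 1 SE was not detectable at this depth. The calls also depended on the scaling: log2 coverage over the genome background of each library gave 0 calls among all genes, and quantile normalization or the fold in place of coverage gave 24 each, with 0 members in any of the 3. Over the genome background the log2 differences of Rps16, Rps19 and Rps29 were 1.05, 0.78 and -0.86. With the fold they were smaller, at 0.57, 0.22 and -0.46, and with quantile normalization they were 1.02, 0.69 and -0.68. An unadjusted p under 0.05 was reached by 1316 of all 5641 genes and by 11 of the 55 members in the limma fit described above.

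The next genes in each direction did not reach the threshold. Rpl13a, which silences inflammatory mRNAs in macrophages when released from the ribosome, had 37, 34, 41 and 65 reads (log2 difference 0.72, SE 0.23, adjusted p = 0.0517 by limma). Rpl7a had 34, 27, 41 and 47 (0.71, SE 0.23, adjusted p = 0.0605 by limma), and its neighbour Med22 had the same values, since 1 peak served both starts. With a replicate block in the fit, Rpl13a and Rpl7a also passed. In neither gene did the groups overlap. Rpl9 had 44, 27, 43 and 50 reads and Rpl31 had 35, 28, 30 and 58. After centring, both esculetin libraries lay above both controls in these genes as well.

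On the other side, Rpl34 had 53, 55, 23 and 44 reads (log2 difference -0.59, SE 0.24, adjusted p = 0.138 by limma). Rpl36al, an intronless paralog whose start lies 91 bp from that of Mgat2, had 59, 52, 28 and 43. Rps21 had 64, 62, 35 and 53. In these 3 genes esculetin 1 was the lowest of the libraries and esculetin 2 lay between it and the controls. Rplp2 (54, 35, 25 and 35 reads) and Rpl21 (47, 36, 23 and 36) overlapped between the groups.

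**Figure D4:**
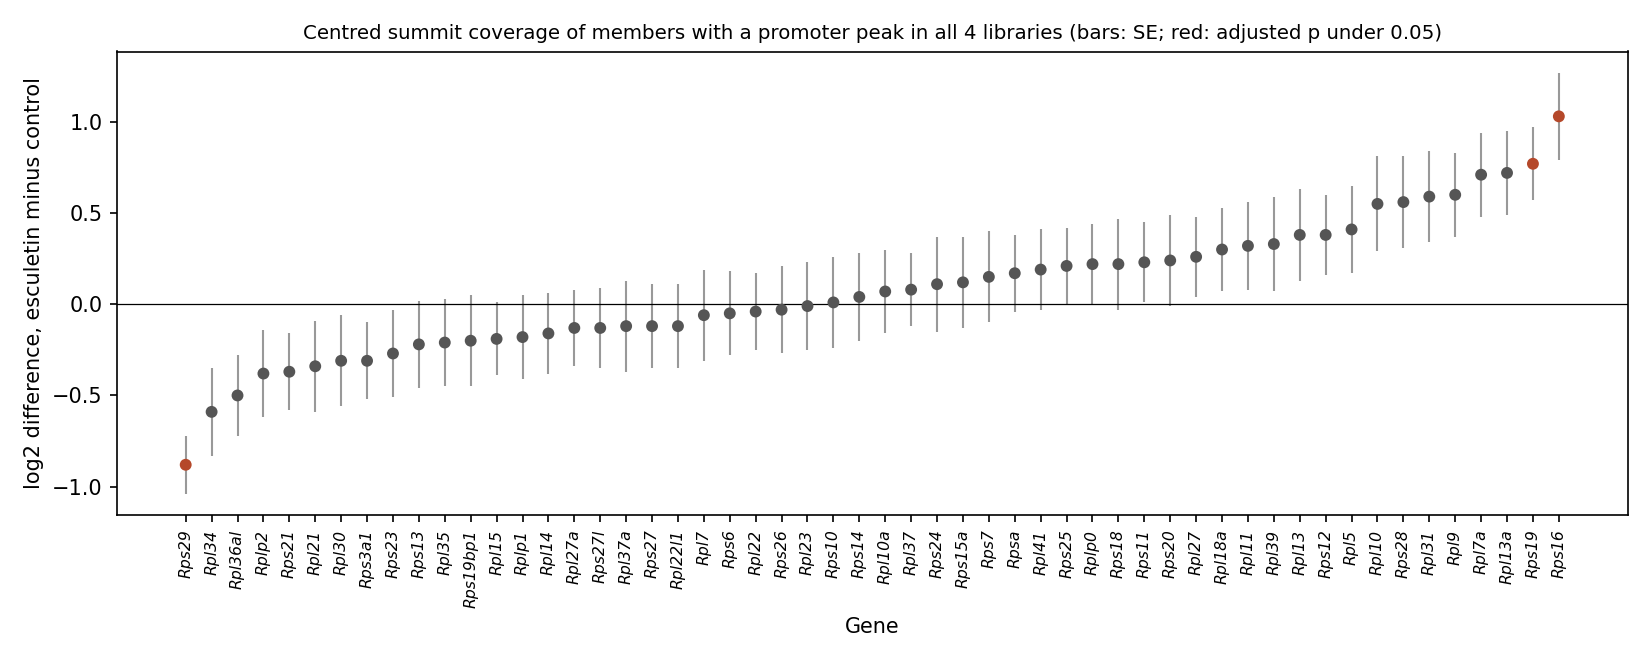
Log2 difference in centred summit coverage, esculetin minus control (y axis), for members with a promoter peak in all 4 libraries, in rank order, with SE bars. Values run from -0.88 for Rps29 to 1.03 for Rps16, and the 3 red points passed an adjusted p under 0.05 in limma.

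Across the 51 core genes with a peak in all 4 libraries, the centred values of control 1 and 2 correlated with r = 0.843, and those of esculetin 1 and 2 with r = 0.656. Between a control and an esculetin library r ranged from 0.465 to 0.576. Over all 5641 genes r was 0.714 and 0.729 within groups and 0.468 to 0.554 between them. These correlations run across genes, which are not independent replicates, and the points of a library share its depth. The core genes include Rps29, which had by far the highest centred values in the controls (1.98 and 1.67). Its values cannot be told apart from those of Rn7s1, and r without it was not computed.

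Peaks inside the genes were counted apart from the promoters. A summit more than 1 kb from every listed start and within the gene, or up to 500 bp past its 3′ end, was present in 7, 22, 2 and 4 members. The shares of all protein-coding genes were 16.6%, 29.6%, 5.29% and 9.38%. The members are short, with a median length of 3183 bp against 17574 bp. Per Mb of such sequence the members had 23.9, 85.3, 6.82 and 13.6 peaks, and all protein-coding genes had 5.47, 11.6, 1.24 and 2.42. These rates include peaks at the starts of neighbouring genes, and they were not computed without them. In esculetin 1 both peaks of the members lay at such starts, those of Zc3h10 and Msrb1. The control mean was 14.5 ± 10.6 members and the esculetin mean 3.00 ± 1.41 (SD, n = 2 each), a difference of -11.5 with an exact permutation p of 0.333. Without control replicate 2 it was -4.00. Of 318 ribosomal protein pseudogenes, 30, 126, 3 and 1 held a peak, so that control 2 was highest in pseudogene and body peaks alike. The part of the pseudogenes in the body count was not tested.

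The body peaks of control 2 ranged from low to high in its list. Rps10 had 26 reads (percentile 39) and Rpl5 had 34 (62.2), while others were strong. Rps2 had 111 reads at 80.4% of its length (percentile 97.8) and Rpl15 had 94 at 56.7% (97.0). Rpl15 had 56 reads at its own promoter in that library. Of the retrogenes and paralogs, Rpl37rt had 92 and Rpl36al 88. Rps3 had 67, Rpl3 had 54 and Rps24 had 50. Rps4x, without a promoter peak in any library, had 3 body peaks there, the strongest with 39 reads. None of these genes had a body peak in either esculetin library.

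In the other libraries several of the body peaks lay at neighbours. The peak past the 3′ end of Rpl41 had 47, 53 and 68 reads in control 1, esculetin 1 and esculetin 2, and it lay 163 to 166 bp from the start of Zc3h10. That of Rpl3l had 49, 39, 31 and 50 reads and lay 56 to 109 bp from the start of Msrb1. Both genes count as members with a body peak, although the peaks lie in the promoter windows of other genes. Rpl17 had 28, 26 and 21 reads in control 1, control 2 and esculetin 2 within its gene, 252 to 614 bp from the start of Snord58b, a small nucleolar RNA of its introns. Snora64, Snord15b, Snord73a, Snora62 and Snord21 started within 1 kb of the control 2 peaks of Rps2, Rps3, Rps3a1, Rpsa and Rpl5. With only the summits more than 1 kb from the start of any other gene, 4, 14, 0 and 1 members remained. The esculetin 2 case was Rpl36, with 27 reads.

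**Figure D5:**
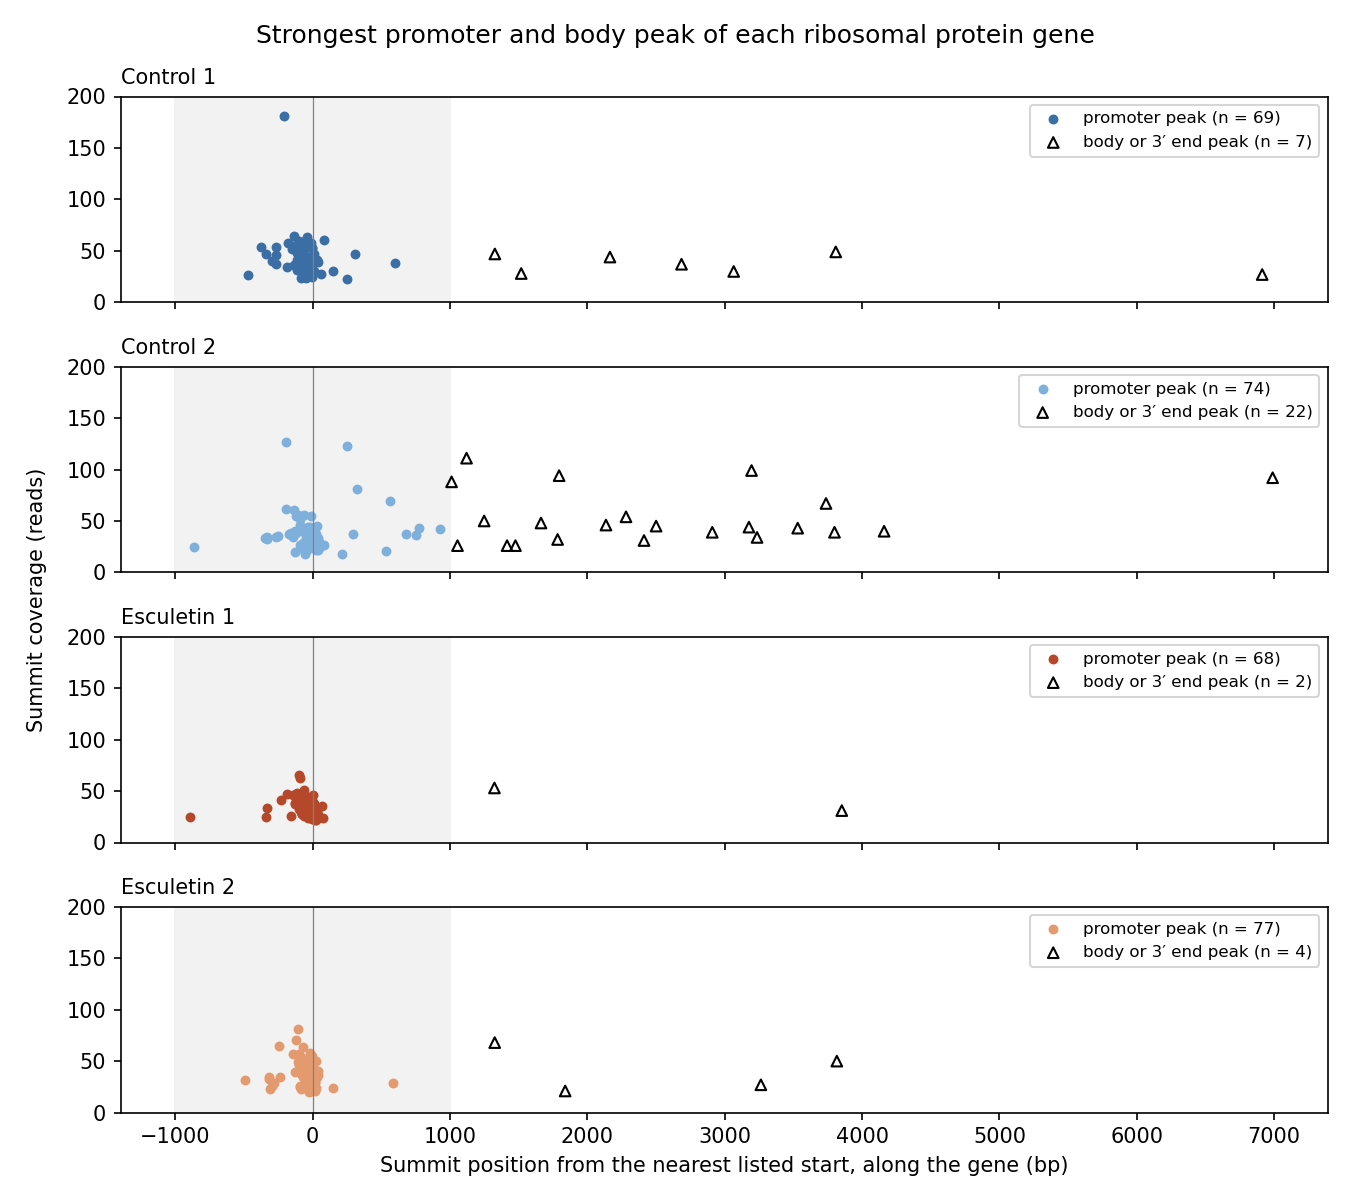
Position of the strongest promoter peak (filled points) and of the strongest body or 3′ end peak (open triangles) of each member along the gene (x axis, bp from the nearest listed start), against summit coverage (y axis, reads), 1 panel a library. The grey band is the promoter window of 1 kb on either side. Control 2 has 22 members with a body peak, up to 111 reads, while esculetin 1 and 2 have 2 and 4.

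Other genes of cytosolic translation were read beside the members, from a list of 20 translation factors and associated proteins. A promoter peak was present in 19, 17, 19 and 20 of them, and in 9, 7, 5 and 8 of 10 ribosome biogenesis genes. With equal list length the 20 genes had 16, 9, 19 and 19, with both esculetin libraries above both controls. The 10 biogenesis genes had 6, 2, 5 and 6, and their groups overlapped. Eef2, the translocation factor, had a promoter peak with 50 and 35 reads in the esculetin libraries and none in the controls, and it had 2, 4, 1 and 1 body peaks. Pabpc1, the poly(A)-binding protein, and Eef1a1 lacked a promoter peak in control 2 only, where they had 4 and 2 body peaks, against 1 each in control 1 and 0 in the esculetin libraries. Rack1, a scaffold on the small subunit, lacked one in esculetin 1 only. Fbl, the methylase of ribosomal RNA, had the peak in both controls and in neither esculetin library.

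In the coverage fit, 2 of 16 translation factors were called, both higher with esculetin, as were 3.63% of all genes tested. Like every other call, both were lost over the genome background. Fau, which encodes Rps30 as a fusion protein, had 36, 29, 60 and 45 reads (log2 difference 0.86, SE 0.23, adjusted p = 0.0257 by limma). The mitochondrial gene Mrpl49 had the same values, since 1 peak served both starts. Eif4a1, the helicase of translation initiation, had 53, 37, 62 and 64 reads (0.69, SE 0.20, adjusted p = 0.0381 by limma). None of the 4 biogenesis genes in the fit was called by limma, and 0 of them had an unadjusted p under 0.05.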

How the data were processed

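The 4 libraries and their groups were taken from the treatment in the labels. As the study's methods describe, reads were trimmed by the authors (Trim Galore) and aligned (Bowtie2, mm10). Duplicates and reads mapping to several places were dropped, and MACS2 called peaks in each library with options not given in the sources used here. Per the deposited lists, each peak has a score, a fold (a linear ratio over background), a −log10 p, a −log10 q and a summit offset. Dropping reads that map to several places lowers signal in recent gene copies. Summit coverage and background were solved from fold and −log10 p and came out whole within 0.01 in 100% of peaks of every list. The lists hold no read counts per gene, so no count model was run. Genes and starts came from RefSeq tables of GRCm38.p6, and the gene's 5′ end stood in for the 20 members without a listed start. GENCODE gave only strand. Exact permutation tests compared single values between groups, and limma 3.58.1 (R 4.3.3) with Benjamini-Hochberg adjustment compared summit coverage over all 5641 genes. Intervals cover counting error only. Python 3.11.15, SciPy 1.17.1 and matplotlib 3.10.9 were used. The procedures were tested on simulated data. Named genes were members lacking a peak, those of highest and lowest percentile, with body peaks, with the largest differences in either direction, landmark members, and translation genes lacking a peak. Members lacking a peak are named beyond the limit set in that rule, some genes are not reported here by name, and genes named for their summit span, body coverage or a call outside the members were chosen after their values were seen. Members and lists were chosen with earlier results of these data known.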

Additional observations from a re-analysis of the deposited data

How the results depend on the processing

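The number of members with a promoter peak (esculetin minus control) ranged from -3.5 to 5.5 when 1 library was left out. It was -0.5 with a window of 2 kb and -1.5 with the gene's 5′ end as the only start, against 1 as reported, and 33 with equal numbers of top peaks. Their median percentile ranged from -15.8 to 7.68 without 1 library, and was 12.1 with equal numbers of top peaks and 3.17 among promoter peaks alone. The count of members with a body peak kept its direction in all 12 alternatives, from -19 to -4. The gap between cytosolic and mitochondrial ribosomal protein shares kept its direction in all 11, from 19.5 to 30.0 points.

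Calls in the coverage fit were the least stable. Against 334 genes and 3 members, the fit gave 0 and 0 over the genome background, 24 and 0 with quantile normalization, and 24 and 0 with the fold. It called 156 genes with the nearest peak in place of the strongest. Without 1 library it called 39 to 691 genes and 1 to 5 members, with the lone library of a group assumed to vary like the other group. The median log2 difference of the members stayed between 0.037 and 0.086.

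The labels share replicate numbers between the groups but do not say that a number marks a common culture or day, so samples were not treated as paired. The peak names within the esculetin lists carry the numbers 2 and 3 where the labels have 1 and 2, so what the block pairs is uncertain. With the replicate block, limma called 491 genes and 5 members, and the permutation p of the body peaks became 0.5, the smallest 2 pairs allow. Background coverage (4.08 to 6.51 reads) did not follow list length. The cause of the differences between settings was not tested. The alternatives on the gene's 5′ end, the nearest peak in the fit, the 300 bp window, neighbouring starts and members with a peak in all 4 libraries were chosen after seeing the data.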
